A study of Mus musculus with 6 samples.

Results

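Zinc transporters and metallothioneins were examined in microglia, the macrophages that live in brain tissue, as 10 genes: the ZIP importer genes Slc39a4, Slc39a1, Slc39a6, Slc39a7, Slc39a8 and Slc39a14, the ZnT exporter genes Slc30a1 and Slc30a5, and the metallothionein genes Mt1 and Mt2. They were found by symbol among the 55487 genes of the count table, each with a single identifier. The set was chosen by the counts of Slc39a4, which were higher in the knockouts than in the controls, so the difference of Slc39a4 between the groups is a description without a test, and the other 9 genes were added as its family and pathway.

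RNA was sequenced from cortical microglia of 6 female mice aged 20 months, sorted as live cells with intermediate CD45 and with CD11b, 1 library per mouse. The 3 controls were littermates that carried floxed Atg7 alleles (Atg7-fl/fl). The 3 knockouts were Atg7-fl/fl;Cx3cr1-CreERT2, that is, the same floxed alleles with a tamoxifen-dependent Cre recombinase expressed from Cx3cr1, a gene that other brain macrophages and blood monocytes also use. Both groups therefore share the floxed alleles, the controls lack the Cre allele, and loss of Atg7, an autophagy enzyme, cannot be told apart from presence of Cre. The labels used here give no drug treatment and no time since deletion.

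Zinc is a cofactor of many enzymes and transcription factors, and its free level in the cytosol is kept very low. ZIP proteins (Slc39 genes) move zinc into the cytosol from outside the cell or from organelles, ZnT proteins (Slc30 genes) move it out of the cytosol, and metallothioneins are small cysteine-rich proteins that bind it. When cytosolic zinc rises, the transcription factor MTF1 binds metal response elements and raises transcription of metallothionein genes and of Slc30a1, the exporter of the plasma membrane. Macrophages use these proteins to hold zinc back from microbes or to load it into vesicles.

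Depth differed widely between the libraries. Control 3 had 1254380 reads in total and knockout 2 had 3789208, against 21282335 to 39389527 in the other 4. A level of 3 reads, used here as the floor of detection, corresponded to 2.36 CPM, the usual unit of counts scaled to a common library size, in control 3, 0.779 CPM in knockout 2 and 0.0789 to 0.139 CPM in the others. All CPM values were scaled between libraries by the trimmed mean of M-values (TMM), and values of a group are listed in the order of its replicates 1, 2 and 3. Atg7 measured 65.7, 66.4 and 56.6 CPM for controls and 25.0, 26.5 and 23.7 CPM for knockouts, in the direction of the labels. Cx3cr1, the gene from which the Cre is expressed, measured 11018, 9581 and 11260.2 CPM for controls and 4394, 4126 and 5611 CPM for knockouts. Its log2 fold change was -1.17 (SE 0.13), so loss of Atg7 cannot be told apart from lower Cx3cr1 either. The 7 microglia markers summed to 38088, 36369 and 34586 CPM for controls and 33705, 30236 and 33317 CPM for knockouts, so that every knockout lay below every control. The lowest control, control 3, was the shallowest library. Taken singly, Fcrls and Csf1r had all knockouts below all controls, against 4.47% of all genes tested. P2ry12, Tmem119, Sall1, Siglech and Trem2 overlapped between the groups. At an unadjusted edgeR p under 0.05, 2 of the 7 (Tmem119 and Fcrls) were lower in the knockouts, against 1.98% of all genes tested, with 0 called. Summed markers of border-associated macrophages were 14.9, 40.2 and 85.6 CPM for controls and 249, 161 and 62.3 CPM for knockouts. Monocyte markers summed to 9.57, 35.4 and 45.6 CPM for controls and 140, 63.6 and 20.2 CPM for knockouts, and 0 of the 5 tested had an unadjusted edgeR p under 0.05. Neutrophil markers summed to 43.7, 359 and 477 CPM for controls and 1977, 652 and 134 CPM for knockouts. Of the 8 border macrophage markers 3 (Pf4, Ms4a7 and Cbr2), and of the 6 neutrophil markers 0, were higher in the knockouts at an unadjusted edgeR p under 0.05. Over all genes tested the share was 2.34%, and 0 were called in either list.

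The importer Slc39a4 was the zinc gene with the widest gap between the groups. Slc39a4 (ENSMUSG00000063354) encodes ZIP4, best known as the zinc importer of the intestinal lining whose loss causes inherited zinc deficiency. Its level was 28.1, 31.4 and 28.3 CPM for controls and 65.7, 98.7 and 83.4 CPM for knockouts. The 3 controls lay close together, and the lowest knockout, knockout 1, lay above the highest control. Mean levels were 29.3 CPM ± 1.85 (SD, n = 3) and 82.6 CPM ± 16.5, with a log2 fold change, knockout over control, of 1.49 and a standard error (SE) of 0.20, or 2.81-fold. The value rested on 36 reads in control 3 and on 380 to 2220 reads in the knockouts. In sorted bulk RNA, more RNA per cell and more cells that make the RNA cannot be told apart.

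Other myeloid markers also varied among the libraries. Among the knockouts Slc39a4 was highest in knockout 2 and lowest in knockout 1. The summed border macrophage, monocyte and neutrophil markers were each highest in knockout 1 and lowest in knockout 3. Single markers did not all follow their sum: Cbr2 was at 12.8, 13.8 and 3.81 CPM and Folr2 at 1.39, 1.82 and 0.05 CPM for knockouts. Both were slightly higher in knockout 2 than in knockout 1. In knockout 2 a level of 3 reads was 0.779 CPM, so these gaps amount to a few reads at most and are not resolved. Folr2 also shares 63.1% of its exonic bases with an antisense gene. The other border macrophage markers, Mrc1, Cd163, Lyve1, Pf4, F13a1 and Ms4a7, were highest in knockout 1. All 8, Cbr2 and Folr2 included, were lowest in knockout 3. Among the controls Slc39a4 lay between 28.1 and 31.4 CPM, while the border macrophage sum ran from 14.9 to 85.6 CPM. The part of these cells, and of the lower microglia marker sums in the knockouts, in the result was not tested. Without control 3 and knockout 2 the log2 fold change of Slc39a4 was 1.32 (SE 0.19).

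**Figure D1:**
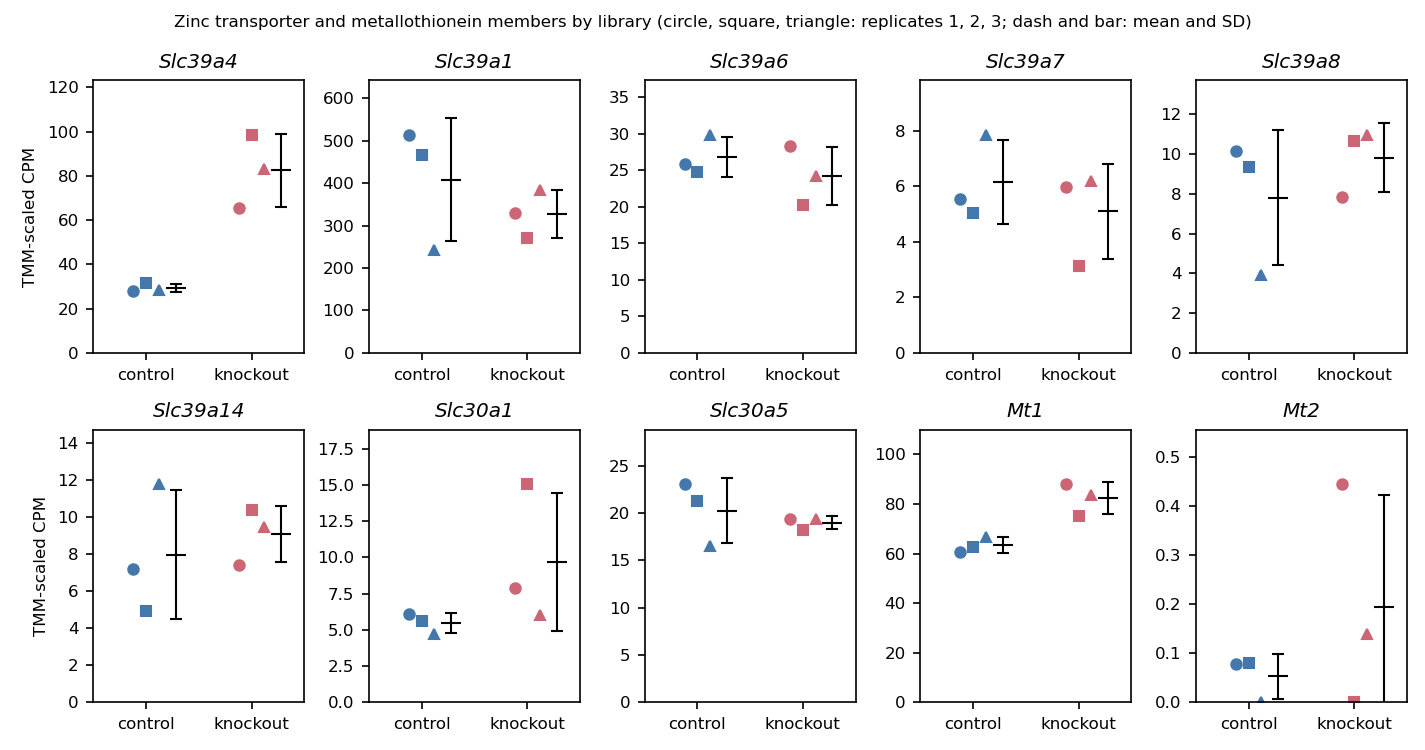
Level in TMM-scaled CPM (vertical axis, from 0) of each of the 10 genes in the 3 control and 3 knockout libraries. Each point is a library, and the dash and bar give the mean and SD; the knockouts lie wholly above the controls in the panels of Slc39a4 and Mt1, and the groups overlap in the other 8.

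The next comparison asked how far the rest of the zinc genes differed between the groups. With edgeR's quasi-likelihood test on all 15787 genes with enough reads, 7 genes (0.0443%) had an adjusted p under 0.05. Of the 10 zinc genes 9 had enough reads to be tested, and Slc39a4, the gene that prompted the choice, was the only one called; nothing is read from that call. Of the other 8 tested, 0 were called by edgeR, by DESeq2 (background 0.527%) or by limma voom (0.095%). At an unadjusted p under 0.05, edgeR placed 1 of these 8, Mt1, higher in the knockouts and 0 lower, against 2.34% and 1.98% of all genes. Their median log2 fold change was 0.06, against 0.02 over all genes tested, with 4 above 0 and 4 below; 52.5% of all genes lay above 0.

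Of the importers, Slc39a1 was by far the most abundant. Slc39a1 (ENSMUSG00000052310) encodes ZIP1, a widely expressed importer of the plasma membrane. It was at 514, 466 and 243 CPM for controls and 330, 271 and 383 CPM for knockouts. Control 3, the shallowest library, was lower than all 3 knockouts, and the other controls were higher than all of them. The log2 fold change was -0.32 (SE 0.26, edgeR adjusted p = 0.999), and -0.59 (SE 0.16, edgeR adjusted p = 0.24) without control 3. That was the lowest adjusted p of Slc39a1 over the 16 alternatives, so the difference was called in none of them.

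The remaining importers showed no separation of the groups. Slc39a6 (ENSMUSG00000024270), which encodes the plasma membrane importer ZIP6, was at 25.9, 24.7 and 29.9 CPM for controls and 28.3, 20.3 and 24.1 CPM for knockouts. Slc39a8 (ENSMUSG00000053897) encodes ZIP8, which carries zinc and manganese and is induced in inflamed macrophages. It was at 10.1, 9.33 and 3.93 CPM for controls and 7.81, 10.6 and 11.0 CPM for knockouts, with only 5 reads behind the low value of control 3. Slc39a14 (ENSMUSG00000022094) encodes ZIP14, a carrier of zinc, manganese and iron that is not bound to transferrin. It was at 7.18, 4.95 and 11.8 CPM for controls and 7.40, 10.4 and 9.48 CPM for knockouts, so that control 2 held the lowest value and control 3 the highest. The log2 fold changes of Slc39a6, Slc39a8 and Slc39a14 were -0.13 (SE 0.23), 0.24 (SE 0.40) and 0.27 (SE 0.42), each with an edgeR adjusted p of 0.999. Slc39a6, Slc39a8 and Slc39a14 changed sign under some other settings. Slc39a8 and Slc39a14 are also known in endothelium. The 6 endothelial markers summed to 56.4, 35.1 and 83.3 CPM for controls and 39.6, 53.5 and 35.8 CPM for knockouts, most of it from Pecam1, while Cldn5 was at 0.26 CPM or less in every library and Slco1a4 at 0 in all 6; 0 of the 3 tested markers had an unadjusted edgeR p under 0.05.

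Slc39a7 (ENSMUSG00000024327) encodes ZIP7, which releases zinc from the endoplasmic reticulum and Golgi into the cytosol. It was counted at 5.55, 5.03 and 7.86 CPM for controls and 5.98, 3.12 and 6.18 CPM for knockouts (log2 fold change -0.19, SE 0.47, edgeR adjusted p = 0.999). In the GENCODE M21 annotation 80.7% of its exonic bases also belong to Gm20427, a transcript on the same strand that joins it to its neighbour. Gm20427 itself had 1 read in knockout 1, 1 in knockout 3 and 0 in the other libraries. Reads from shared bases may be left out of both genes, depending on how the authors' counting treated them, so the level of Slc39a7 is uncertain.

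The exporter genes also overlapped between the groups. Slc30a1 (ENSMUSG00000037434) encodes ZnT1, which carries zinc out across the plasma membrane; 8.92% of its exonic bases lie opposite an antisense gene. It was at 6.07, 5.65 and 4.71 CPM for controls and 7.90, 15.1 and 6.04 CPM for knockouts, which is 6 reads in control 3 and 58 in knockout 2. Knockout 2 stood well above the other 5 libraries, and knockout 3 lay just under control 1. The log2 fold change was 0.76 (SE 0.44, edgeR adjusted p = 0.999) and was 0.31 (SE 0.47, edgeR adjusted p = 0.9998) without knockout 2; the lowest adjusted p over the 16 alternatives was 0.727, by limma voom. Slc30a5 (ENSMUSG00000021629) encodes ZnT5, which loads zinc into the early secretory pathway together with the product of Slc30a6. It was at 23.1, 21.2 and 16.5 CPM for controls and 19.4, 18.2 and 19.4 CPM for knockouts (-0.12, SE 0.24, edgeR adjusted p = 0.999), with control 3 lowest of all.

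**Figure D2:**
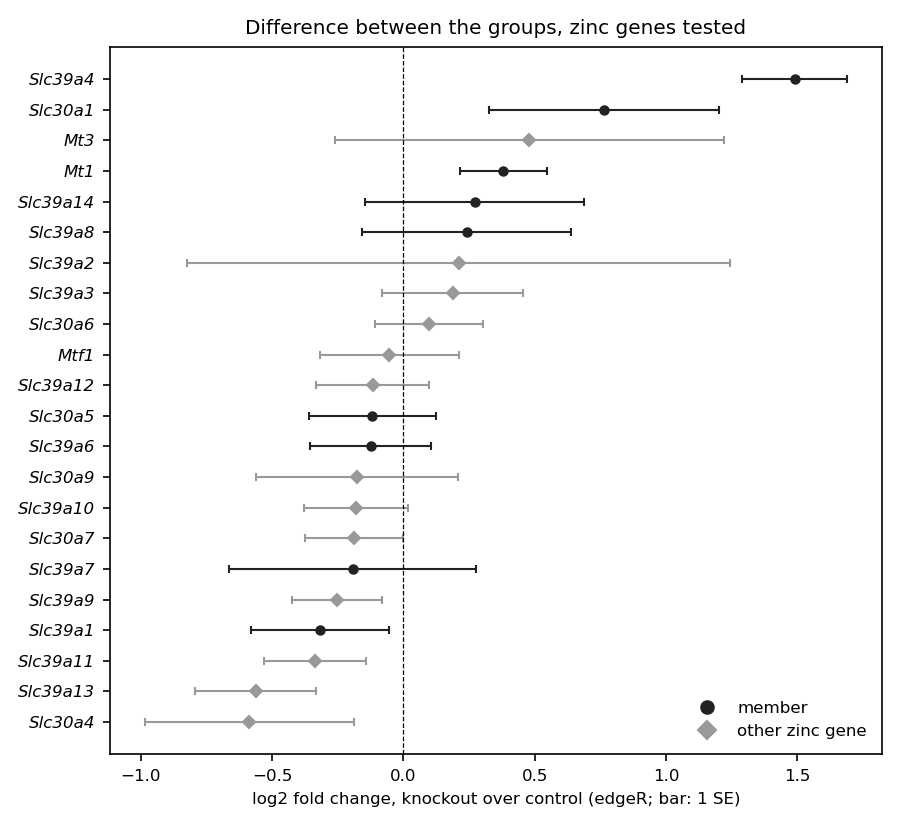
Log2 fold change, knockout over control, from edgeR (horizontal axis; bars are 1 SE) for the 9 tested genes of the set (black circles) and the 13 tested genes of the wider zinc list (grey diamonds). Slc39a4 lies at 1.49, and all the others lie between -0.59 and 0.76.

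Among the 9 genes other than Slc39a4, Mt1 alone had all knockouts above all controls, at 1.30 times the control level, but it did not pass the test over all genes. Mt1 (ENSMUSG00000031765), the main metallothionein gene counted here, was at 60.8, 62.7 and 66.8 CPM for controls and 88.0, 75.3 and 83.5 CPM for knockouts. Such a separation, knockouts above controls, was seen in 6.59% of all genes tested and in 1 of the 8 tested zinc genes other than Slc39a4. Means were 63.4 CPM ± 3.05 (SD, n = 3) and 82.3 CPM ± 6.43, and the log2 fold change was 0.38 (SE 0.17, edgeR unadjusted p = 0.0366, adjusted p = 0.999; DESeq2 adjusted p = 0.838; limma voom adjusted p = 0.321). Its log2 fold change stayed between 0.31 and 0.47 over the 16 alternative settings and libraries left out. Metallothionein genes are known to be high in astrocytes. The 7 astrocyte markers summed to 321, 335 and 299 CPM for controls and 345, 277 and 371 CPM for knockouts, of which Slc1a3 made up 250.1 to 326 CPM, while Gfap was at 1.60 CPM or less in every library. The astrocyte sums of the groups overlapped. Of the 7 markers 1, Aldh1l1, was higher in the knockouts at an unadjusted edgeR p under 0.05, against 2.34% of all genes. It was at 1.52, 4.57 and 3.93 CPM for controls and 10.3, 7.01 and 9.30 CPM for knockouts (log2 fold change 1.47, SE 0.50, edgeR adjusted p = 0.878). All its knockouts lay above all its controls, as in 6.59% of all genes tested. The other astrocyte markers went both ways. Their log2 fold changes were 0.39 for Gfap, 0.48 for Aldoc and 0.04 for Slc1a3. They were -1.31 for Aqp4, -0.77 for Gja1 and -0.68 for Slc1a2. The part of astrocyte RNA in the difference of Mt1 was not tested.

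Mt2 (ENSMUSG00000031762), which lies beside Mt1 and is usually transcribed with it, was hardly counted at all. It had 3, 3 and 0 reads for controls and 15, 0 and 3 reads for knockouts, against 85 to 2973 reads of Mt1 in the same libraries. Knockout 1 was the only library above the floor of 3 reads, so no fold change is given. In GENCODE M21, 73.5% of the exonic bases of Mt2 also lie in exons of Gm45774, an antisense gene on the opposite strand, which had 2 reads in knockout 2 and 0 elsewhere. Mt1 shares 0% of its exonic bases with another gene. No source used here gives the strand setting of the counting, so these counts do not show whether Mt2 RNA was low.

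Sequence around the starts of the genes that MTF1 is known to control is shown because Mt1, Mt2 and Slc30a1 are the members usually read as a sign of cytosolic zinc. RefSeq promoter windows (GRCm38.p6, 250 bases before to 50 after the start) were found for 7 of the 10 genes, with 8 windows in all, of which Slc39a8 has 2; Slc39a4, Slc39a6 and Slc39a14 had no entry. The metal response element was searched on both strands as TGCACNC and TGCGCNC. Matches were found in 5 of the 8 windows, against 25.7% of all 32851 windows. Mt2 held 4 matches and Mt1 held 3, and 1.97% of all windows held 3 or more; Slc30a1 held 2, Slc39a8 held 1 in 1 of its windows, and Slc30a5 held 1. Each line gives the window strand, 5′ to 3′, with the match in capitals and 9 bases on each side in lower case.
Mt1, chr8:94179057-94179081, plus strand: gtcccgctgTGCACACtggcgctcc
Mt1, chr8:94179082-94179106, plus strand: agggagctcTGCACTCcgcccgaaa
Mt1, chr8:94179100-94179124, plus strand: cccgaaaagTGCGCTCggctctgcc
Mt2, chr8:94172386-94172410, plus strand: catcgcctcTGCACCCggcccctcg
Mt2, chr8:94172481-94172505, plus strand: cagacccttTGCGCTCagctccttt
Mt2, chr8:94172559-94172583, plus strand: ggggagggcGTGTGCAggctctgtc
Mt2, chr8:94172613-94172637, plus strand: attcgggtcGTGCGCAggcccaggg
Slc30a1, chr1:191906729-191906753, plus strand: gggggttccGAGTGCAaagcaaagt
Slc30a1, chr1:191906802-191906826, plus strand: ctccgggccGAGCGCAgtcgccgcg

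The 3 sites of Mt1 and the first 2 of Mt2 read in the direction of the gene, and the last 2 of Mt2 and both of Slc30a1 lie on the opposite strand. Counted from the start of the window's transcript, the matches of Mt1 began at bases -23, 3 and 21, those of Mt2 at -223, -128, -50 and 5, and those of Slc30a1 at -43 and 31. The core of the antioxidant response element, TGACNNNGC on both strands, was found in 5 of the 8 windows (1 each of Slc30a1, Slc39a1, Slc39a8, Mt2 and Slc30a5), against 12.4% of all windows. The 8 windows held 48% to 73% G and C, and the shares over all windows were not matched for this. With 8 windows, no enrichment is read from these shares. A match describes these letters and is not evidence of binding. Mtf1, the gene of the factor itself, was at 24.5, 18.4 and 15.7 CPM for controls and 16.0, 23.4 and 18.7 CPM for knockouts, overlapping between the groups (log2 fold change -0.05, SE 0.26, edgeR adjusted p = 0.999).

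Per length, the levels of the 10 genes spread over a wide range and kept the same order of means in both groups. Levels were divided by merged exon length from GENCODE M21 and are given in CPM per kilobase. That length merges all annotated exons of a gene, which a single RNA need not contain, so the order depends on it. The places of Slc39a7 and Mt2 are also uncertain, because they share 80.7% and 73.5% of their exonic bases with other genes. In the controls Slc39a1 was first at 172 ± 61.3 (SD, n = 3), followed by Mt1 at 50.9 ± 2.45, Slc39a4 at 9.42 ± 0.60 and Slc39a6 at 6.59 ± 0.66. Each of these was separated from the next, with no overlap between libraries. Slc30a5 at 2.78 ± 0.46 overlapped Slc39a7 at 2.38 ± 0.58. Slc30a1 at 1.04 ± 0.13 overlapped Slc39a8 at 1.02 ± 0.44, which overlapped Slc39a14 at 0.76 ± 0.33. In the knockouts the means of the 10 genes stood in the same order, with Slc39a1 at 139 ± 23.7, Mt1 at 66.0 ± 5.16, Slc39a4 at 26.6 ± 5.32 and Slc39a6 at 5.95 ± 0.98, each again separated from the next. Lower down, Slc30a1 overlapped both Slc39a7 and Slc39a8, and Slc39a14 overlapped Mt2. In knockout 2 Slc30a1, at 2.87, stood above Slc30a5 at 2.49 and Slc39a7 at 1.21, so the lower part of the order holds for the means only.

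Among the 14 ZIP genes of the mouse, Slc39a4 held rank 5, 4 and 5 per length in controls 1 to 3 and rank 2 in all 3 knockouts. Slc39a1 was first in all 6 libraries. Slc39a4 made up 3.06%, 3.69% and 4.81% of the summed ZIP level of controls 1 to 3 and 9.30%, 15.4% and 10.8% of that of knockouts 1 to 3. These shares and ranks restate the difference for which Slc39a4 was chosen. The share of Slc39a1 was 73.6%, 71.8% and 54.2% in the controls and 61.3%, 55.6% and 65.3% in the knockouts, which overlapped.

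**Figure D3:**
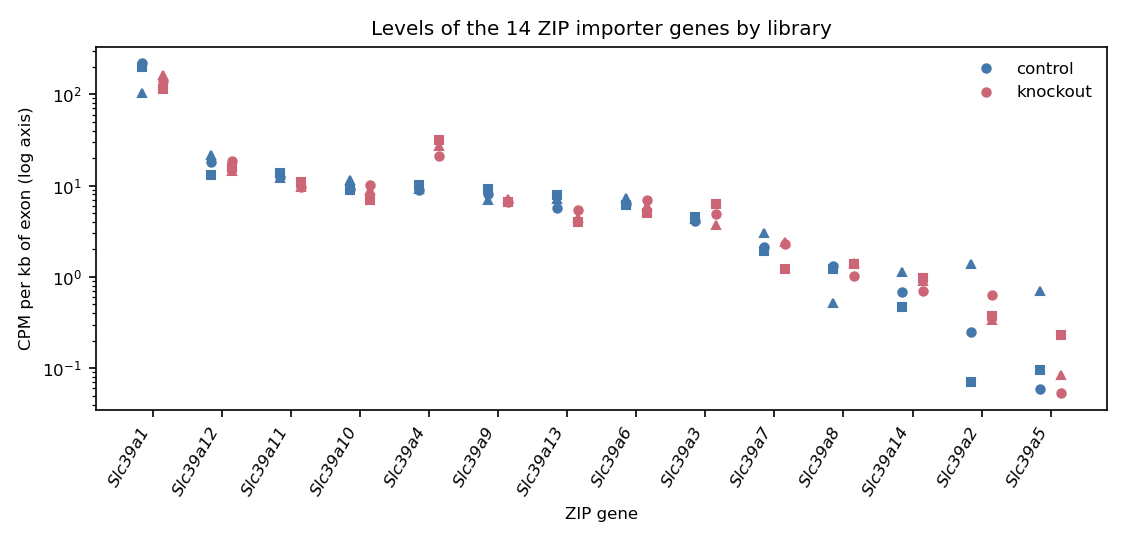
Level of each of the 14 ZIP genes in CPM per kilobase of exon (vertical log axis) in each library, controls blue and knockouts red, ordered by the control mean; a library at 0 would not be drawn. Slc39a1 is highest throughout, and Slc39a4 stands at rank 5, 4 and 5 in the controls and at rank 2 in the knockouts.

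The other zinc genes, 20 in number, were the remaining ZIP and ZnT genes, Mt3, Mt4, Mtf1 and the zinc transporter gene Tmem163. Of these 13 had enough reads to be tested, and 0 were called by edgeR, DESeq2 or limma voom. Their median log2 fold change was -0.18, with 4 above 0 and 9 below, where 52.5% of all genes tested lay above 0. At an unadjusted p under 0.05, edgeR placed 0 higher and 1 lower in the knockouts, against 2.34% and 1.98% of all genes. Of the 13, 2 had all knockouts below all controls, against 4.47% of all genes tested.

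Slc39a13 and Slc39a11 were the genes with that separation. Slc39a13 encodes ZIP13, which releases zinc from the Golgi and vesicles; it was at 27.6, 38.6 and 34.6 CPM for controls and 26.5, 19.5 and 21.7 CPM for knockouts. Knockout 1 lay only just under control 1. Its log2 fold change was -0.56 (SE 0.23, edgeR unadjusted p = 0.0276, adjusted p = 0.999). Slc39a11, the gene of the ZIP family member ZIP11, was at 42.2, 45.8 and 40.9 CPM for controls and 32.8, 37.1 and 32.5 CPM for knockouts (-0.34, SE 0.19, edgeR adjusted p = 0.999). These levels are lower in the knockouts, the opposite direction to Slc39a4, and did not pass the test over all genes.

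The groups overlapped in each of the other tested transporters. Slc39a9, a ZIP gene of the Golgi, had 81.8 CPM ± 12.1 (SD, n = 3) among controls against 68.9 CPM ± 3.79 among knockouts. Slc39a10, an importer gene of the plasma membrane, had 60.5 CPM ± 8.96 and 52.8 CPM ± 9.66. Slc39a12, known as a zinc importer gene of the brain, was second among the ZIP genes per length in controls 1 and 3 and at rank 3 in control 2. It had 52.8 CPM ± 12.8 among controls against 48.1 CPM ± 6.23 among knockouts. Slc39a12 is also known to be high in astrocytes, and the part of astrocyte RNA in its level was not tested. Slc39a3, an importer gene, had 17.4 CPM ± 0.79 and 19.9 CPM ± 5.12.

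Of the ZnT genes of organelles, Slc30a4, which encodes a transporter of endosomes and lysosomes, had 11.5 CPM ± 3.67 (SD, n = 3) among controls against 7.27 CPM ± 2.50 among knockouts. Slc30a6, the partner of Slc30a5, had 39.7 CPM ± 5.90 and 42.1 CPM ± 5.67, and Slc30a7, a Golgi transporter gene, 88.8 CPM ± 20.2 and 77.2 CPM ± 6.85; 16.0% of the exonic bases of Slc30a7 also lie in pseudogenes. Slc30a9, whose product serves mitochondria, had 17.5 CPM ± 10.1 and 14.7 CPM ± 4.48, with 29.1 CPM in control 3 and 10.2 to 13.3 CPM in the other controls. Mt3, the metallothionein gene typical of the brain, was low, with 38, 70 and 3 reads for controls and 42, 13 and 51 reads for knockouts, so that control 3 alone was at the floor of 3 reads. Slc39a2 had 5 to 73 reads per library. The genes with too few reads to be tested were Slc39a5, Slc30a2, Slc30a3, Slc30a10 and Tmem163, with at most 19 reads in any library, and Slc30a8 and Mt4, with 0 reads in all 6 libraries.

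The genes whose pattern over the 6 libraries was most like that of Slc39a4 were Blvrb, Trpv4, Osgin1, Gramd1b and Dnase1l3. Likeness was the root mean square difference of log2 CPM, each gene centred on its own mean, among 5634 protein-coding genes with a mean of at least 20 CPM. It was 0.19 for Blvrb, 0.28 for Trpv4, 0.30 for Osgin1, 0.31 for Gramd1b and 0.33 for Dnase1l3. Blvrb, which encodes biliverdin reductase B, was at 56.3, 72.3 and 62.9 CPM for controls and 112, 161 and 148 CPM for knockouts. Within each group it ordered the 3 libraries as Slc39a4 did. In the controls that order is not resolved, as Slc39a4 was at 28.1 CPM in control 1 and 28.3 CPM, from 36 reads, in control 3. Osgin1, an oxidative stress gene, was highest in knockout 3 at 57.9 CPM, and Dnase1l3, a secreted nuclease gene, was highest in knockout 2 at 36.6 CPM. Trpv4, a cation channel gene, lay between 33.2 and 38.3 CPM in the knockouts and at 15.5 to 15.7 CPM in the controls. Gramd1b, the gene of a sterol transfer protein, lay at 28.5 to 32.7 CPM in the knockouts and 12.4 to 17.2 CPM in the controls. The measure was chosen to find genes that share the pattern of Slc39a4, so neither their separation nor a shared order of libraries is a result.

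**Figure D4:**
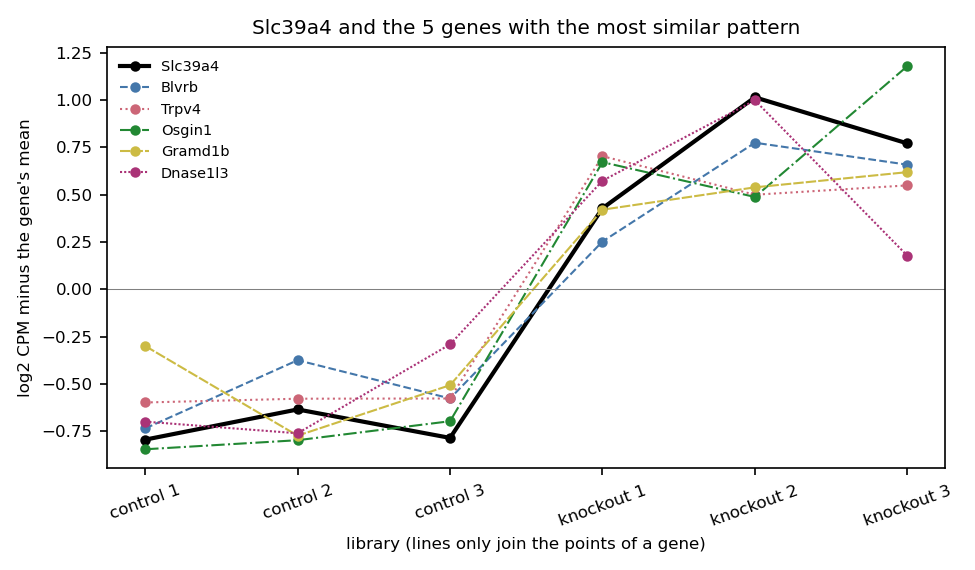
Log2 CPM minus the gene's own mean (vertical axis) in the 6 libraries for Slc39a4 (thick black line) and the 5 genes most like it; lines only join the points of a gene. Slc39a4 and Blvrb are lowest in control 1 and highest in knockout 2, at 0.19 root mean square difference. Slc39a4 hardly differs between control 1 (-0.794) and control 3 (-0.785), and Blvrb was picked for its likeness.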

How the data were processed

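The deposited file gives raw read counts, 1 row per gene and 1 column per library, per the file headers and values. Per the labels' protocols, a SMARTer Ultra Low kit gave cDNA that was sheared, ligated to adapters and amplified; without molecular identifiers reads are not independent molecules, and floors cover counting error only. The tools STAR, featureCounts, Subread, Salmon and bcl2fastq and the build GRCm39 are named, per the submitters' processing notes; their settings are not given in the sources used here. Of the 55774 rows, 287 repeated an identifier and were dropped, 0 named no gene, and 0 columns belonged to other samples. Of the 55487 identifiers, 99.4% were found in GENCODE M21 (GRCm38), from which exon lengths and overlaps were taken.

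Genes were kept by filterByExpr, scaled by TMM and tested with edgeR 4.0.16 (R 4.3.3; robust quasi-likelihood, group as the only term), with Benjamini-Hochberg adjustment over all 15787 genes tested and a call at 0.05. The SE is the coefficient over the square root of F. DESeq2 1.42.0 and limma 3.58.1 were alternatives. On simulated counts (14990 genes run), edgeR recovered 14% of changes of log2 1 and 81% of log2 2, with 6 false calls among 101. The changes were placed only in genes above a set mean CPM, with the spread fitted to these data. The recovery therefore does not cover the genes of low counts. Replicates are separate mice; counts of each pair within a group differed beyond sampling noise (chi-square per degree of freedom 39.4 or more). The members and lists were chosen with earlier results of these data known. Named genes were the 10 members, every tested gene of the 20 other zinc genes, Atg7 and Cx3cr1 as a check of the labels, and the 5 genes nearest to Slc39a4 in pattern (prior count 2, mean of at least 20 CPM, protein coding, no predicted genes); Slc39a5, Slc30a2, Slc30a3, Slc30a8, Slc30a10, Mt4 and Tmem163 complete the list of other zinc genes. 1 gene of the microglia marker list is not reported here and was left out of its sum.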

Additional observations from a re-analysis of the deposited data

How the results depend on the processing

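The log2 fold change of Slc39a4 stayed between 1.32 and 1.61 over 16 alternatives. Its edgeR call was lost without control 1 (adjusted p = 0.0984), without knockout 2 (0.0924) and without the robust option (0.068). It was also lost in limma voom with library quality weights (adjusted p = 0.0579). In these settings 0 of the 10 genes were called, and in every other setting 1 was, always Slc39a4. Slc39a4 was chosen by its difference between the groups, so nothing is read from its call being kept or lost. Leaving out 1 library gave 0 to 1 calls among the 10 genes, and the other zinc genes had 0 calls in every setting. Over all genes, 7 were called; the number was 102 with no filter, 83 in DESeq2, 15 in limma voom, 4 with library quality weights, 2 without the robust option, 2 to 50 with 1 library left out (50 without control 3), and 39 without both shallow libraries, an alternative chosen after seeing the data.

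With the replicate block, 25 genes were called over all genes, and 1 of the 10, Slc39a4. Same-numbered mice of the groups had correlations of 0.30, -0.22 and -0.06 between their deviations. The shallow libraries control 3 and knockout 2 had 0.29. With 3 libraries per group of such unlike depth, these values cannot decide whether the numbers pair the mice. Slc39a4 kept its sign throughout. The log2 fold changes that changed sign were of genes not called in either setting. They were, with library totals, Mtf1 (0.00599). In limma voom they were Slc39a6 (0.0098), Slc39a7 (0.082), Slc39a8 (-0.043), Slc39a12 (0.049) and Slc30a9 (0.083). With library quality weights they were Slc39a7 (0.0045), Slc39a8 (-0.039), Slc39a12 (0.0087) and Slc30a9 (0.091). With 1 library left out the value ran from -0.39 to 0.021 for Slc39a7, -0.0088 to 0.46 for Slc39a8, -0.0086 to 0.56 for Slc39a14, -0.62 to 1.48 for Slc39a2, -0.019 to 0.34 for Slc39a3, -0.30 to 0.024 for Slc39a12, -0.014 to 0.20 for Slc30a6, -0.48 to 0.28 for Slc30a9 and -0.22 to 0.16 for Mtf1. Without both shallow libraries they were Slc39a6 (0.045), Slc39a7 (0.19), Slc39a8 (-0.062), Slc39a3 (-0.0101), Slc39a10 (0.0597), Slc39a12 (0.055), Slc30a7 (0.037) and Slc30a9 (0.038). The cause was not tested. In control 3, Slc39a8, Slc30a1, Slc39a2 and Mt3 had 6 reads or fewer, so differences in these genes were not resolved at that depth.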
